A study of Mus musculus with 6 samples.

Results

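The 32 genes described here carry out chromosome segregation and cell division. They were chosen by name, with earlier results of these data known. They comprise cyclins and kinases of mitotic entry, the chromosomal passenger complex, the spindle checkpoint and activators of the anaphase-promoting complex. The others are centromere and kinetochore proteins, spindle motors and microtubule binders, cytokinesis factors, and topoisomerase II alpha. Each was matched by mouse gene symbol to the Ensembl identifier in the count files. All 32 of 32 were found among 41388 genes, and all 32 were among the 12339 genes that passed the filter on low counts. They lie on 15 chromosomes, and they held between 249 and 8690 counts in a library.

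The RNA came from KP2 cells, a pancreatic cancer line derived from a KPC mouse (an engineered mouse model of this cancer), on a C57BL/6J background and within 10 passages of derivation. The groups were IRAK4 KO + rescue, IRAK4 KO, and Wild-type, with 2 libraries in each of the 3 groups. The knockout was made with lentiviral CRISPR vectors coding for guide RNAs against IRAK4, so the IRAK4 KO + rescue cells carry that vector as well. The labels do not say what the rescue construct is, whether each line is a clone or a pool, or whether the Wild-type cells received a vector. Whether the libraries of a group are separate cultures is not stated, and the p-values therefore measure only how far these libraries spread, which may be technical. IRAK4 is a kinase downstream of Toll-like and interleukin-1 receptors, and the design compares its knockout with a rescue.

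At the entry to mitosis, CDK1 is activated by cyclin A and cyclin B, and Polo-like and Aurora kinases help to mature centrosomes and build the spindle. The spindle checkpoint holds the anaphase-promoting complex until kinetochores are attached, after which CDC20 directs that complex to destroy cyclin B and securin. The chromosomal passenger complex corrects attachments and then moves to the central spindle, where motors and their partners drive cytokinesis. Many of these genes are transcribed late in the cell cycle, repressed in resting cells by the DREAM complex and activated by MYBL2 and FOXM1, through a promoter element called the cell cycle genes homology region (CHR). In a culture of dividing cells, the level of such a transcript follows both the share of cells in G2 and M phase and the amount of RNA per cell, and these bulk libraries cannot tell them apart. Likewise, fewer cells of a type and less RNA per cell cannot be told apart.

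RefSeq promoters on GRCm38.p6, from 250 bases before to 50 bases after the start, were at hand for 27 of the 32 genes (none for Ccna2, Aurkb, Incenp, Tpx2 and Kif20a). The CHR was searched as TTTGAA or TTCGAA and the CCAAT box as CCAAT, on both strands. The 150 bases before the start of Cdc20 and of Ccnb1, genes with high fold changes in IRAK4 KO cells, are shown. The pair differ in the CHR letters searched. Cdc20 holds TTTGAA at position -18 and CCAAT boxes at -53 and -8. Ccnb1 holds CCAAT boxes at -99 and -67, and neither TTTGAA nor TTCGAA in its window. Other spellings of the CHR were not searched, so this does not show that Ccnb1 lacks the element. Capitals mark the letters found. The Cdc20 stretch is chr4:118437344-118437493 and that of Ccnb1 is chr13:100786487-100786636, both on the minus strand.
Cdc20: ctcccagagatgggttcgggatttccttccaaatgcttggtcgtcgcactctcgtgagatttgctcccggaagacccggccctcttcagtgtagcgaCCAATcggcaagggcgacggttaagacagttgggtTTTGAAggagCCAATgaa
Ccnb1: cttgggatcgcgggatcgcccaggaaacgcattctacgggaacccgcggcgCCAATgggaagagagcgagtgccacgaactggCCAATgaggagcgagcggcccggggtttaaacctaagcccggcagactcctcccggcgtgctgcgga

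The next windows, each of 30 bases, show the CHR letters (capitals) near the start of genes that were higher in IRAK4 KO cells (Plk1, Aurka, Ube2c, Kif11) and of genes that were not called (Bub1, Cenpf, Kif23, Top2a). In Ube2c, Kif11 and Top2a the letters lie on the other strand and therefore read TTCAAA. The windows are chr7:122159453-122159482 on the plus strand for Plk1, chr2:172370521-172370550 on the minus strand for Aurka, chr2:164769888-164769917 on the plus strand for Ube2c and chr19:37376351-37376380 on the plus strand for Kif11. Those on the minus strand for the other genes are chr2:127831828-127831857 for Bub1, chr1:189688067-189688096 for Cenpf, chr9:61946780-61946809 for Kif23 and chr11:99024195-99024224 for Top2a.
Plk1: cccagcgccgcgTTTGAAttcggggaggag
Aurka: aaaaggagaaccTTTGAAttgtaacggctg
Ube2c: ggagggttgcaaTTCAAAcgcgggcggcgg
Kif11: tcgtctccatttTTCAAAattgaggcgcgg
Bub1: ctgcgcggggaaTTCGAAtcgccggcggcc
Cenpf: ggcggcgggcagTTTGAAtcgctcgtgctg
Kif23: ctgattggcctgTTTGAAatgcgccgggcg
Top2a: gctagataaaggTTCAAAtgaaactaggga

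The libraries held 7605328 to 11505983 counts, and the 32 genes took 0.531% and 0.522% of them in IRAK4 KO + rescue cells, 0.581% and 0.541% in IRAK4 KO cells, and 0.416% and 0.446% in Wild-type cells. Levels below are normalised CPM, read counts scaled to the library size after TMM scaling. Irak4, the targeted gene (chromosome 15, 94543643 to 94581815, GRCm38), had 492 and 211 normalised CPM in IRAK4 KO + rescue cells, 20.4 and 21.8 in IRAK4 KO cells, and 37.9 and 37.6 in Wild-type cells. The IRAK4 KO libraries were the lower ones without overlap, but this log2 difference, -0.84 (SE 0.33), did not pass the test (adjusted p = 0.057), and reads of a rescue construct cannot be told apart from those of the endogenous gene. Of 10 pancreatic ductal markers, 7 exceeded 1 CPM in the IRAK4 KO + rescue and IRAK4 KO libraries and 9 in the Wild-type libraries, with Epcam at 0 in 5 of 6 libraries. Their sum was 4783 and 5644 in IRAK4 KO + rescue cells, 3911 and 4014 in IRAK4 KO cells, and 7057 and 6746 in Wild-type cells. Of the 9 ductal markers tested, 8 were called lower and 0 higher in IRAK4 KO than in Wild-type cells (23.5% of all genes were lower). In the rescue 6 were lower than in Wild-type cells (12% of all genes). Against IRAK4 KO cells 3 were higher and 3 lower in the rescue (8.35% and 5.88% of all genes). Immune markers summed to 4.04 to 5.20 in every library. Acinar markers summed to 3.68 and 3.46 in IRAK4 KO + rescue cells, 3.84 and 4.13 in IRAK4 KO cells, and 1.90 and 1.95 in Wild-type cells, and fibroblast markers to 18.8 and 24.0 in IRAK4 KO + rescue cells, 14.96 and 10.1 in IRAK4 KO cells, and 13.5 and 13.2 in Wild-type cells. Endothelial markers summed to 38.2 and 14.8 in IRAK4 KO + rescue cells, 16.0 and 30.8 in IRAK4 KO cells, and 4.63 and 5.47 in Wild-type cells. Cdh5 made up nearly all of the endothelial sum in the IRAK4 KO + rescue and IRAK4 KO libraries and was higher in IRAK4 KO than in Wild-type cells by 2.77 on the log2 scale (adjusted p = 6.6e-04), while Kdr was lower (log2 fold change -3.88, adjusted p = 9.4e-04) and Tie1 was at 0 in 5 of 6 libraries. Other measures also moved with the groups: mitochondrial genes took 1.86% and 1.30% of counts in IRAK4 KO + rescue cells, 1.97% and 2.33% in IRAK4 KO cells, and 1.39% and 1.65% in Wild-type cells. Gm42418, an abundant non-coding transcript, took 3.88% and 3.86% in IRAK4 KO + rescue cells, 2.93% and 2.67% in IRAK4 KO cells, and 4.26% and 4.01% in Wild-type cells. The part of these marker, mitochondrial and Gm42418 differences in the results below was not tested.

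Transcripts of the mitotic machinery were more abundant in IRAK4 KO cells than in Wild-type cells for 19 of the 32 genes, and less abundant for 0. The median log2 fold change of the 32 genes was 0.34, a 1.27-fold higher level, against a median of 0.01 over all genes tested. The highest fold changes were those of Cdc20, Nuf2, Ccnb1 and Kif20a, and those nearest to 0 were those of Top2a, Cenpf, Anln and Cenpe. The call rests on edgeR's quasi-likelihood test with Benjamini-Hochberg adjustment over all genes tested, at an adjusted p under 0.05, by which 23.2% of all genes were higher and 23.5% lower in IRAK4 KO cells. At an unadjusted p under 0.05, 21 of the 32 were higher and 0 lower, while DESeq2 called 16 higher and 0 lower. Both IRAK4 KO libraries exceeded both Wild-type libraries for 25 of the 32 genes, which held for 39.1% of all genes, and both lay below for 1 gene, Bub1, as for 37.6% of all genes. The count of higher genes was 11 when the first Wild-type library was left out and 13 when the first IRAK4 KO library was. The 11 genes called in each of the 12 alternatives planned were Ccna2, Ccnb1, Plk1, Incenp, Birc5, Mad2l1, Cdc20, Nuf2, Kif11, Kif2c and Kif20a.

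**Figure D1:**
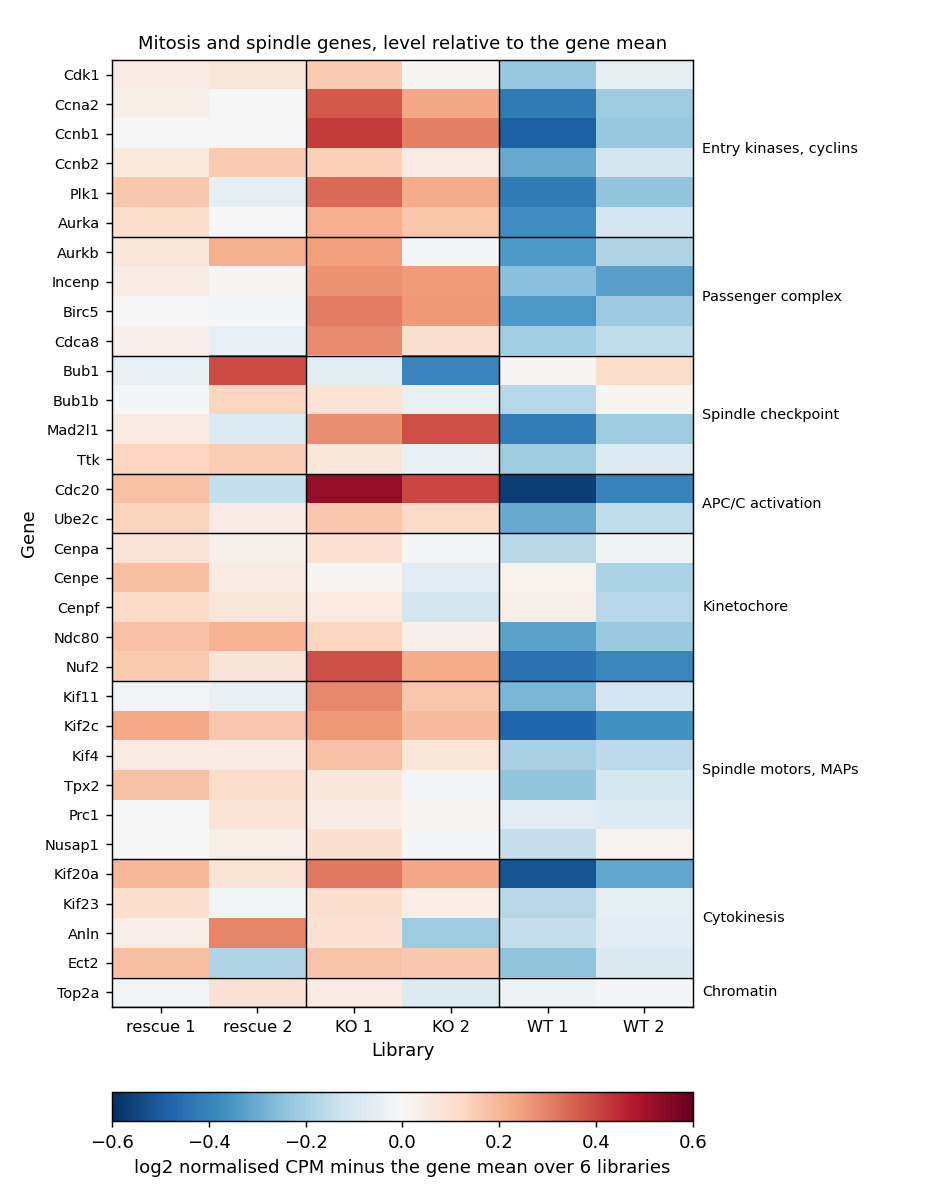
Heat map of the 32 genes (rows, grouped by role) in the 6 libraries (columns), coloured by the log2 normalised CPM minus the gene's mean over the 6 libraries. Most rows are red in the IRAK4 KO libraries and blue in the Wild-type libraries. The first Wild-type library is the lowest of the 6 for 25 genes. The median log2 level relative to the gene mean is 0.07 and 0.05 in the rescue libraries, beside 0.17 and 0.06 in the IRAK4 KO libraries. Bub1, Anln and Top2a do not follow this pattern and are lowest in the second IRAK4 KO library.

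The first IRAK4 KO library was the highest of the 6 for 18 genes, the second rescue library for 8, the first rescue library for 5 and the second IRAK4 KO library for 1. At the low end stood the first Wild-type library for 25 genes, the second Wild-type library for 4 and the second IRAK4 KO library for 3. The summed level of the 32 genes was 5279 and 5290 normalised CPM in IRAK4 KO + rescue cells, 5591 and 5160 in IRAK4 KO cells, and 4390 and 4626 in Wild-type cells. Libraries of 1 group also differed from each other across these genes: 31 of 32 were higher in the first than in the second IRAK4 KO library, with a median log2 difference of 0.11, and 4 of 32 were higher in the first than in the second Wild-type library, with a median of -0.14. The same medians over all genes tested were 0.00 in both groups.

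Among the kinases and cyclins of mitotic entry, 5 of 6 were higher in IRAK4 KO cells, with a median log2 fold change of 0.52. Ccnb1, which encodes cyclin B1 (ENSMUSG00000041431, chromosome 13, 100778650 to 100786570), had 55.4 and 51.1 normalised CPM in IRAK4 KO cells, against 29.6 and 35.4 in Wild-type cells. Ccna2, the gene for cyclin A2, had 332 and 302 in IRAK4 KO cells, against 192 and 222 in Wild-type cells. Plk1, the gene for Polo-like kinase 1, stood at 154 and 142 in IRAK4 KO cells, against 90.8 and 103 in Wild-type cells. In all of these the IRAK4 KO libraries were high, the Wild-type libraries low, and the groups did not overlap, with log2 fold changes of 0.71 (SE 0.11, adjusted p = 2.9e-04) for Ccnb1, 0.62 (SE 0.09, adjusted p = 2.8e-04) for Ccna2 and 0.61 (SE 0.10, adjusted p = 5.3e-04) for Plk1. The level of Ccnb1 is uncertain because 4 pseudogene transcripts are near-identical to it, Ccnb1-ps by 99.2% over 1287 bases, although Ccnb1-ps had 0 counts. Aurka, the centrosomal Aurora kinase, averaged 106 ± 2.83 in IRAK4 KO cells and 78.7 ± 9.88 in Wild-type cells (SD, n = 2 each), higher by 0.43 on the log2 scale (adjusted p = 0.0042) and by 0.31 without the first Wild-type library (adjusted p = 0.074). Cyclin B2, from Ccnb2, had 119 and 112 normalised CPM in IRAK4 KO cells, against 87.5 and 100.1 in Wild-type cells. The groups did not overlap, and the log2 fold change was 0.30 (SE 0.09, adjusted p = 0.020), with an adjusted p of 0.21 if the first Wild-type library was left out and 0.157 if the first IRAK4 KO library was. Cdk1, the kinase that these cyclins activate, averaged 158 ± 11.6 in IRAK4 KO cells and 135 ± 11.3 in Wild-type cells, a log2 fold change of 0.23 that did not pass (adjusted p = 0.059; 95% interval 0.03 to 0.42), but passed without the first (adjusted p = 0.031) or the second (adjusted p = 0.028) rescue library.

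The 4 genes of the chromosomal passenger complex were all higher in IRAK4 KO cells, with a median log2 fold change of 0.47. Incenp, its scaffold, had 168 and 167 normalised CPM in IRAK4 KO cells, against 117 and 111 in Wild-type cells. Birc5, the gene for survivin (chromosome 11, 117849251 to 117855743), had 105 and 102 in IRAK4 KO cells, against 66.7 and 72.8 in Wild-type cells. For both genes the libraries within a group lay close together and the groups were apart, with log2 fold changes of 0.55 (SE 0.08, adjusted p = 2.1e-04) for Incenp and 0.56 (SE 0.09, adjusted p = 2.9e-04) for Birc5. Cdca8, which codes for borealin, had 100.1 and 87.9 in IRAK4 KO cells, against 71.4 and 74.2 in Wild-type cells. Aurkb, the kinase of the complex, had 119 and 99.4 in IRAK4 KO cells, against 78.8 and 88.2 in Wild-type cells. The IRAK4 KO libraries of these genes were spread more widely but stayed above both Wild-type libraries, with log2 fold changes of 0.37 (adjusted p = 0.0062) for Cdca8 and 0.39 (adjusted p = 0.011) for Aurkb. With the first Wild-type library left out the adjusted p was 0.066 for Cdca8 and 0.125 for Aurkb, and without the first IRAK4 KO library it was 0.101 and 0.167 in the same order of genes.

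The checkpoint genes differed among themselves, with 1 of 4 called. Mad2l1, the gene for the checkpoint inhibitor MAD2 (chromosome 6, 66535390 to 66541033), had 115 and 124 normalised CPM in IRAK4 KO cells, against 70.6 and 81.5 in Wild-type cells. The groups were well apart, with a log2 fold change of 0.64 (SE 0.10, adjusted p = 2.9e-04), although a pseudogene transcript, Gm42430, matches Mad2l1 by 95.4% over 454 bases. Bub1, a checkpoint kinase at kinetochores, had 133 and 106 in IRAK4 KO cells, against 140.5 and 151 in Wild-type cells. The IRAK4 KO libraries were the lower ones without overlap, at a log2 fold change of -0.28 (SE 0.14, adjusted p = 0.119) that passed in the fit of these groups alone (adjusted p = 0.010) and without the first (adjusted p = 0.012) or the second (adjusted p = 0.016) rescue library. Ttk, the gene for the checkpoint kinase MPS1, had 48.4 and 44.7 in IRAK4 KO cells, against 39.8 and 43.6 in Wild-type cells, without overlap and with a log2 fold change of 0.16 (adjusted p = 0.197). Bub1b, the gene for BUBR1, which with MAD2 restrains CDC20, averaged 147 ± 8.90 in IRAK4 KO cells and 137 ± 12.2 in Wild-type cells (SD, n = 2 each), and its libraries overlapped.

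Cdc20, the activator of the anaphase-promoting complex (ENSMUSG00000006398, chromosome 4, 118432901 to 118437352), had the highest fold change of the 32 genes. It stood at 144 and 132 normalised CPM in IRAK4 KO cells, against 67.8 and 75.9 in Wild-type cells. The lowest IRAK4 KO library was far above the highest Wild-type library, and the level was 1.92-fold higher (log2 fold change 0.94, SE 0.11, adjusted p = 6.0e-05). Ube2c, the ubiquitin-conjugating enzyme of the same complex, had 177 and 171 in IRAK4 KO cells, against 128 and 142 in Wild-type cells. Its groups were apart too, by 0.36 on the log2 scale (SE 0.09, adjusted p = 0.0045), with an adjusted p of 0.077 without the first Wild-type library.

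Of 5 centromere and kinetochore genes, the NDC80 complex members Nuf2 and Ndc80 were higher in IRAK4 KO cells. Nuf2 (chromosome 1, 169497934 to 169531464) had 56.3 and 50.3 normalised CPM in IRAK4 KO cells, against 31.6 and 32.8 in Wild-type cells. Ndc80, its partner in binding microtubules, had 57.3 and 53.5 in IRAK4 KO cells, against 41.9 and 44.9 in Wild-type cells. Both genes were without overlap, with log2 fold changes of 0.73 (SE 0.10, adjusted p = 1.5e-04) for Nuf2 and 0.35 (SE 0.09, adjusted p = 0.0085) for Ndc80. For Ndc80, adjusted p was 0.091 when the first Wild-type library was left out and 0.092 when the first IRAK4 KO library was, and the transcript 2700099C18Rik matches it by 95.05% over 303 bases, so its level is uncertain. Cenpa, the histone H3 variant of centromeres, had 114 and 106 in IRAK4 KO cells, against 95.6 and 105 in Wild-type cells, close together and with a log2 fold change of 0.13 (adjusted p = 0.23). The large kinetochore proteins encoded by Cenpe and Cenpf overlapped between groups: Cenpe averaged 254 ± 10.1 in IRAK4 KO cells and 245 ± 25.2 in Wild-type cells, and Cenpf 228 ± 18.7 in IRAK4 KO cells and 221 ± 22.7 in Wild-type cells (SD, n = 2 each). Their log2 fold changes had 95% intervals of -0.15 to 0.26 for Cenpe and -0.16 to 0.25 for Cenpf.

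The 3 of 6 spindle genes that were higher in IRAK4 KO cells all encode kinesin motors. Kif2c, which depolymerises microtubules at centromeres (chromosome 4, 117159639 to 117182639), had 103 and 97.6 normalised CPM in IRAK4 KO cells, against 61.6 and 66.5 in Wild-type cells. Kif11, the motor that slides spindle poles apart, had 157 and 145 in IRAK4 KO cells, against 107 and 119 in Wild-type cells. Kif4, a chromosome-bound motor, had 86.3 and 80.4 in IRAK4 KO cells, against 66.8 and 68.6 in Wild-type cells. None of these overlapped between the groups, and the log2 fold changes were 0.64 (SE 0.09, adjusted p = 1.4e-04) for Kif2c, 0.42 (SE 0.09, adjusted p = 0.0023) for Kif11 and 0.30 (SE 0.08, adjusted p = 0.012) for Kif4. Without the first Wild-type library, the second Wild-type library or the first IRAK4 KO library in turn, the adjusted p of Kif4 was 0.096, 0.06 and 0.127. The microtubule binders were not called. Tpx2, which activates Aurora A on the spindle, had 222 and 211 in IRAK4 KO cells, against 180.0 and 197 in Wild-type cells, without overlap (log2 fold change 0.20, adjusted p = 0.070), and it passed without the first (adjusted p = 0.045) or the second (adjusted p = 0.038) rescue library. Prc1, which bundles microtubules of the central spindle, averaged 223 ± 3.25 in IRAK4 KO cells and 207 ± 1.67 in Wild-type cells, and Nusap1, a spindle binder, 85.9 ± 4.63 in IRAK4 KO cells and 80.3 ± 6.25 in Wild-type cells (SD, n = 2 each).

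For cytokinesis, 2 of 4 genes were higher in IRAK4 KO cells. Kif20a, a motor of the central spindle, had 151 and 142 normalised CPM in IRAK4 KO cells, against 84.5 and 97.5 in Wild-type cells. Ect2, an exchange factor needed for the contractile ring, had 251 and 250.2 in IRAK4 KO cells, against 189 and 210.2 in Wild-type cells. The groups were apart in both, with log2 fold changes of 0.69 (SE 0.09, adjusted p = 1.5e-04) for Kif20a and 0.33 (SE 0.11, adjusted p = 0.030) for Ect2. The Ect2 call was lost without any 1 of the 4 libraries compared, at adjusted p of 0.125 (first IRAK4 KO library left out), 0.105 (second IRAK4 KO library), 0.224 (first Wild-type library) and 0.058 (second Wild-type library). Exons of Kif20a overlap those of Cdc23, on the opposite strand, over 1259 bases, and Cdc23 was itself higher in IRAK4 KO cells by 0.60 on the log2 scale (adjusted p = 4.7e-04). The strand setting of the counting is not given in the sources used here. Reads in this overlap, a part of the 3796 bases listed for Kif20a, therefore cannot be told apart. The same limit holds for 6 further genes of the 32, namely Ccna2, Cdca8, Cdc20, Ube2c, Kif4 and Nusap1, with overlaps of 53 bases (Cdc20 with Elovl1) to 832 bases (Kif4 with Pdzd11), and in GENCODE M21 for Prc1 with Rccd1. Kif23, a motor subunit of centralspindlin, had 205 and 197 in IRAK4 KO cells, against 171 and 184 in Wild-type cells, apart but not called (log2 fold change 0.18, adjusted p = 0.104). Anln, the gene for the ring scaffold anillin, averaged 406 ± 59.6 in IRAK4 KO cells and 392 ± 13.6 in Wild-type cells, with overlap.

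Top2a, the topoisomerase that untangles sister chromosomes, had 726 and 664 normalised CPM in IRAK4 KO cells, against 687 and 699 in Wild-type cells. The IRAK4 KO libraries lay on either side of the Wild-type libraries, and the log2 fold change of 0.00 had a 95% interval of -0.18 to 0.19. That interval lies below the log2 fold changes of Cdc20, Nuf2 and Ccnb1.

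**Figure D2:**
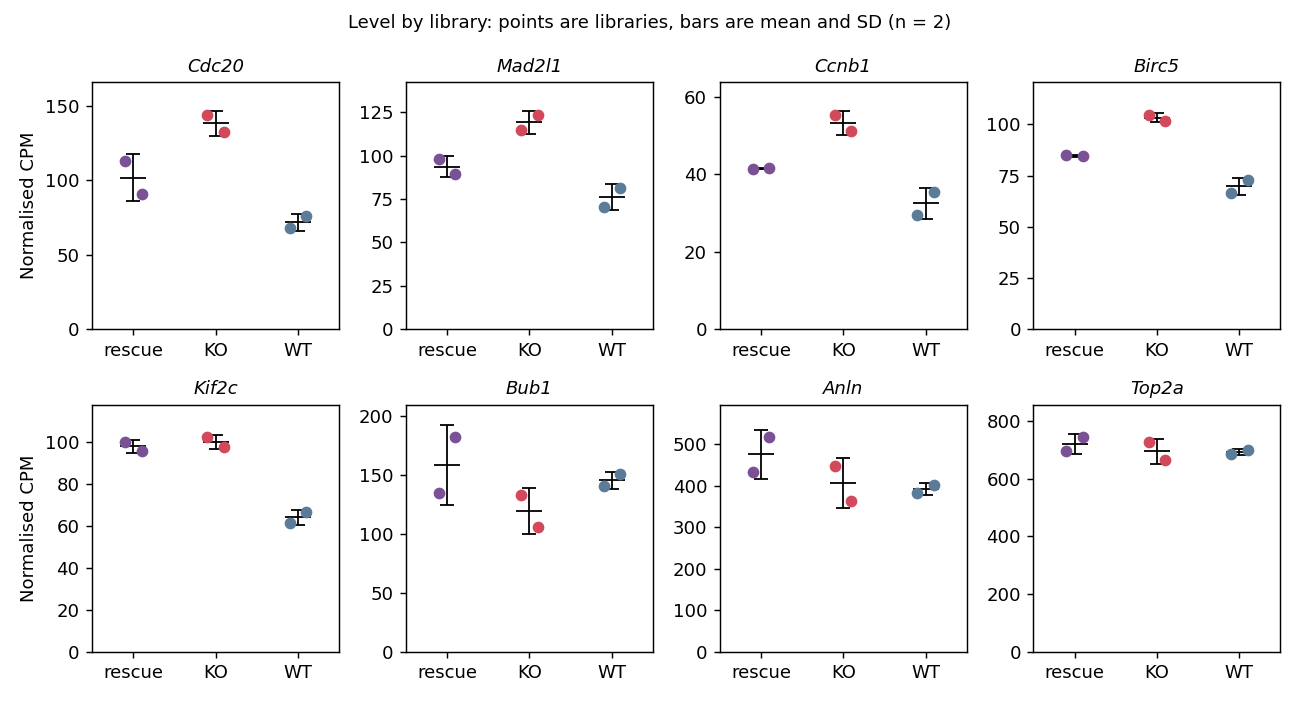
Normalised CPM (vertical axes, starting at 0) of 8 of the genes in IRAK4 KO + rescue, IRAK4 KO and Wild-type (WT) cells; points are libraries, and bars are the mean and SD (n = 2). Cdc20, Mad2l1, Ccnb1 and Birc5 are highest in IRAK4 KO cells and intermediate in the rescue, the libraries of Kif2c overlap between rescue and IRAK4 KO cells, Bub1 is lowest in IRAK4 KO cells, and the libraries of Top2a overlap between groups.

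The rescue, in which Irak4 lay above its Wild-type level, was compared with IRAK4 KO cells to see which of these transcripts differed. In IRAK4 KO + rescue cells 4 of the 32 genes fell, Cdc20, Ccnb1, Mad2l1 and Birc5, and 0 rose, against 5.88% of all genes lower and 8.35% higher. The median log2 fold change of the 32 genes was -0.03, against -0.00 over all genes tested. Both rescue libraries lay below both IRAK4 KO libraries for 13 genes and above for 6, where these were 30.1% and 29.3% of all genes. At an unadjusted p under 0.05, 8 of the 32 genes were lower and 1 higher. Without the first IRAK4 KO, the second IRAK4 KO or the second rescue library the count of lower genes was 0, without either Wild-type library it was 1, and without the first rescue library it was 7. The fit with a replicate block, DESeq2 and the fit of these groups alone each called 1, Cdc20. Over all genes tested these fits called 429, 378 and 377 lower, in the same order, against 726 without these changes. Calls of lower genes over all genes also moved in the same direction as those of the 32 when a library was left out.

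Cdc20 had 113 and 90.7 normalised CPM in IRAK4 KO + rescue cells, against 144 and 132 in IRAK4 KO cells. Ccnb1 had 41.3 and 41.6 in IRAK4 KO + rescue cells, against 55.4 and 51.1 in IRAK4 KO cells. Mad2l1 had 98.0 and 89.4 in IRAK4 KO + rescue cells, against 115 and 124 in IRAK4 KO cells. The rescue libraries were low and the IRAK4 KO libraries high in each of these, without overlap, while the rescue libraries of Cdc20 differed most from each other. Birc5 had 85.0 and 84.4 in IRAK4 KO + rescue cells, against 105 and 102 in IRAK4 KO cells, again without overlap. Cdc20 fell by 0.44 on the log2 scale (SE 0.11, adjusted p = 0.024), Ccnb1 by 0.36 (SE 0.11, adjusted p = 0.044), Mad2l1 by 0.34 (SE 0.10, adjusted p = 0.037) and Birc5 by 0.29 (SE 0.09, adjusted p = 0.046). Other genes with both rescue libraries below both IRAK4 KO libraries included Ccna2, with 264 and 258 in IRAK4 KO + rescue cells against 332 and 302 in IRAK4 KO cells (log2 fold change -0.28, adjusted p = 0.062), and Kif11, with 127 and 125 in IRAK4 KO + rescue cells against 157 and 145 in IRAK4 KO cells (log2 fold change -0.26, adjusted p = 0.070). Without the first rescue library, Ccna2 (adjusted p = 0.034), Plk1 (adjusted p = 0.018) and Ect2 (adjusted p = 0.011) were called lower as well.

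Other genes overlapped between the rescue and the knockout. Kif2c had 100.3 and 95.8 normalised CPM in IRAK4 KO + rescue cells, against 103 and 97.6 in IRAK4 KO cells. Ube2c had 173 and 163 in IRAK4 KO + rescue cells, against 177 and 171 in IRAK4 KO cells. Ccnb2 had 113 and 120.4 in IRAK4 KO + rescue cells, against 119 and 112 in IRAK4 KO cells. These libraries were interleaved, with log2 fold changes of -0.03 (SE 0.09) for Kif2c, -0.05 (SE 0.09) for Ube2c and 0.01 (SE 0.09) for Ccnb2. Bub1 differed the other way, with 134 and 182 in IRAK4 KO + rescue cells against 133 and 106 in IRAK4 KO cells, a log2 fold change of 0.40 (SE 0.14, adjusted p = 0.077) in which the second rescue library was the high one. Anln likewise had its highest value, 517, in the second rescue library, beside 434 in the first, against 448 and 364 in IRAK4 KO cells. Without the first rescue library both Bub1 (log2 fold change 0.60) and Anln (log2 fold change 0.35, adjusted p = 0.017) were called higher.

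Set against Wild-type cells, IRAK4 KO + rescue cells had higher transcripts for 14 of the 32 genes and lower for 0, where 10.2% of all genes were higher and 12% lower. The median log2 fold change of the 32 genes was 0.28, against 0.01 over all genes tested. Both rescue libraries exceeded both Wild-type libraries for 27 of the 32 genes, as for 31.2% of all genes, and both lay below for 0, as for 30.4% of all genes. This comparison and that of IRAK4 KO with Wild-type cells use the same Wild-type libraries, so their values are given side by side without a test of their likeness. The count was 3 without the first Wild-type library (Nuf2, Kif2c and Kif20a, which were called in each of the 12 alternatives), 7 without the second, and 10 with a replicate block.

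**Figure D3:**
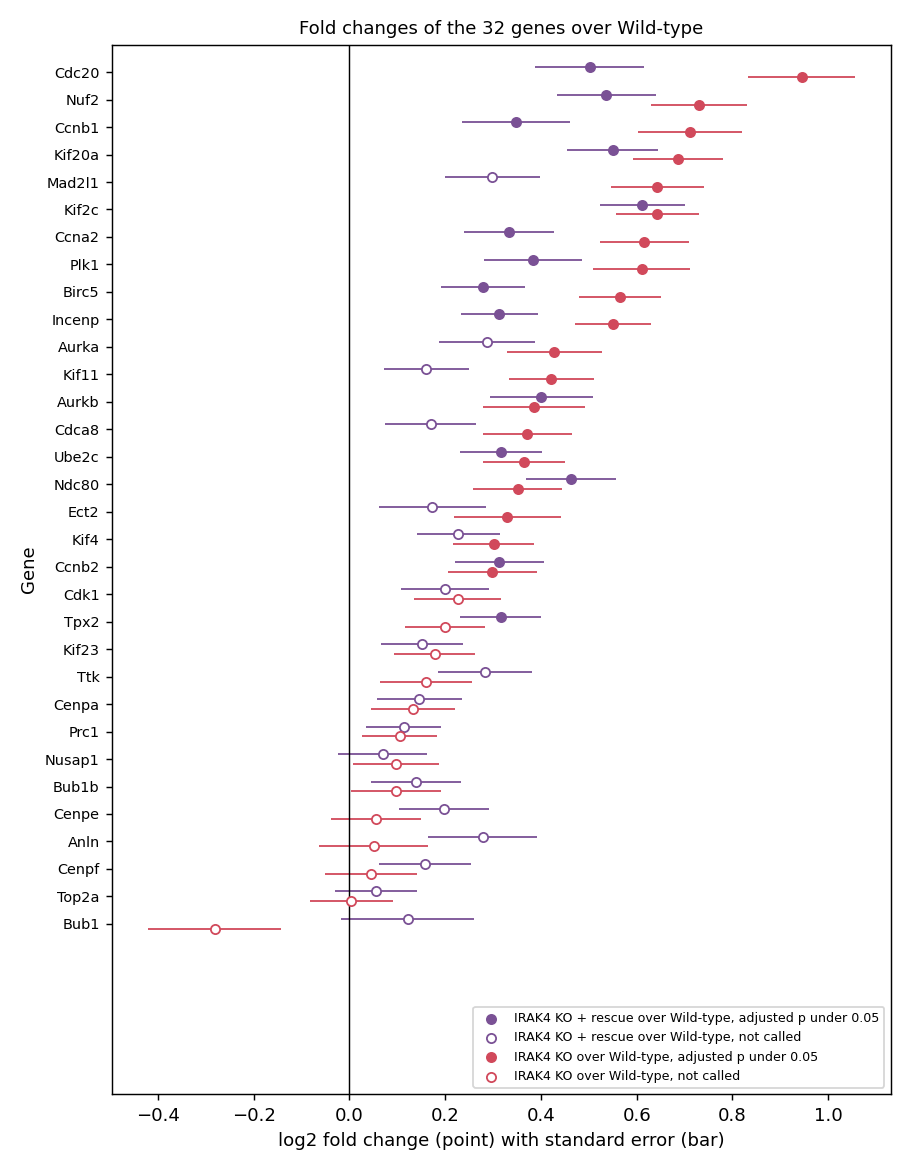
Log2 fold change over Wild-type cells (horizontal axis, bars are the standard error) of the 32 genes for IRAK4 KO + rescue and for IRAK4 KO cells; filled points have an adjusted p under 0.05. Cdc20 lies at 0.50 in the rescue and 0.94 in the knockout, Kif2c at 0.61 and 0.64, and 19 knockout points and 14 rescue points are filled.

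Kif2c was the gene with the highest fold change here, with 100.3 and 95.8 normalised CPM in IRAK4 KO + rescue cells against 61.6 and 66.5 in Wild-type cells (log2 fold change 0.61, SE 0.09, adjusted p = 5.6e-04). Kif20a had 139 and 128 in IRAK4 KO + rescue cells, against 84.5 and 97.5 in Wild-type cells. Nuf2 had 48.1 and 45.4 in IRAK4 KO + rescue cells, against 31.6 and 32.8 in Wild-type cells. All of these were apart, by 0.55 (adjusted p = 0.0019) for Kif20a and 0.54 (adjusted p = 0.0036) for Nuf2 on the log2 scale. Cdc20, with 113 and 90.7 in IRAK4 KO + rescue cells against 67.8 and 75.9 in Wild-type cells, was higher by 0.50 (adjusted p = 0.0091; 0.115 without the first Wild-type library). Ndc80, with 59.2 and 60.6 in IRAK4 KO + rescue cells against 41.9 and 44.9 in Wild-type cells, was higher by 0.46 (adjusted p = 0.0048; 0.069 without the first Wild-type library). Tpx2, which was not called in IRAK4 KO cells, had 240.2 and 229.6 in IRAK4 KO + rescue cells, against 180.0 and 197 in Wild-type cells, higher by 0.32 (adjusted p = 0.020). The difference of Tpx2 between the rescue and the knockout itself was 0.12 (adjusted p = 0.38).

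The cyclins and Polo-like kinase were also above Wild-type cells in the rescue, by 0.33 on the log2 scale for Ccna2 (adjusted p = 0.025), 0.35 for Ccnb1 (adjusted p = 0.047), 0.31 for Ccnb2 (adjusted p = 0.033) and 0.38 for Plk1 (136 and 117 normalised CPM in IRAK4 KO + rescue cells, adjusted p = 0.021). Of the passenger complex, Aurkb (105 and 116 in IRAK4 KO + rescue cells), Incenp (144 and 140.0) and Birc5 were higher by 0.40 (adjusted p = 0.021), 0.31 (adjusted p = 0.017) and 0.28 (adjusted p = 0.040), and Cdca8 (84.1 and 79.6) was not called (log2 fold change 0.17, adjusted p = 0.23). Ube2c was higher by 0.32 (adjusted p = 0.022). None of the 4 checkpoint genes was called, with Mad2l1 at 0.30 (adjusted p = 0.051) and Ttk, at 50.5 and 51.1 in IRAK4 KO + rescue cells, at 0.28 (adjusted p = 0.060). Except for Nuf2, Kif2c and Kif20a, the 14 genes were not called without the first Wild-type library, and Ccnb1, Ccnb2, Aurkb, Incenp, Birc5, Ube2c and Tpx2 were not called without the second. The calls of Ccnb1, Birc5, Plk1, Ube2c and Tpx2 were lost without the first rescue library, those of Ccnb1 and Ccnb2 without the second, and those of Ccnb1, Ccnb2 and Birc5 without either IRAK4 KO library.

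To compare levels between genes, the deposited RPKM (CPM divided by the gene length in kilobases) was averaged over the 6 libraries. Anln (78.2), Top2a (77.9), Ccna2 (74.9) and Ccnb2 (70.6) were the most abundant transcripts per length, and Ttk (9.43) and Ccnb1 (10.1) the least, around a median of 34.1 RPKM for the 32 genes. On this scale Cdc20 averaged 54.4 RPKM in IRAK4 KO + rescue cells, 77.3 in IRAK4 KO cells and 36.8 in Wild-type cells. Genes at both ends of the order were called in IRAK4 KO cells, such as Ccna2 and Ccnb1, and genes at both ends were not, such as Top2a and Ttk. The order depends on the listed gene lengths, and the place of Ccnb1 is uncertain because of its near-identical pseudogene transcripts.

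Beyond the 32 genes, 159 further genes of the same processes were all tested, and 91 of them were higher and 8 lower in IRAK4 KO than in Wild-type cells, with a median log2 fold change of 0.33, where 23.2% of all genes were higher and 23.5% lower. The count of higher genes was 53 when the first Wild-type library was left out and 55 when the first IRAK4 KO library was. The 8 lower genes were 4 without either Wild-type library and 3 without the second IRAK4 KO library, so the counts by role below also rest on all of these libraries. Kinetochore and checkpoint genes outside the 32 had 26 of 38 higher and 0 lower, among them Mad1l1, the MAD2 partner at kinetochores (log2 fold change 1.06, adjusted p = 2.6e-05), and the centromere gene Cenpn (0.90, adjusted p = 8.9e-05). For regulators of mitotic entry 9 of 14 were higher and 0 lower, including Ccnf (0.69, adjusted p = 1.1e-04), which codes for cyclin F, and the centrosomal kinase gene Nek2 (0.67, adjusted p = 9.5e-05). Subunits and regulators of the anaphase-promoting complex had 7 of 17 higher and 0 lower, led by Fbxo5, the gene for the inhibitor EMI1 (1.03, adjusted p = 5.7e-05). Condensin had 6 of 8 higher, with Ncapg2 at 0.73 and Smc2 at 0.49, and 1 lower, Ncaph2 at -0.32. Among cohesin and separation genes 6 of 14 were higher, with Cdca5, the gene for sororin, at 0.71 and Espl1, the gene for separase, at 0.58, and 1 was lower, the cohesin subunit gene Stag2 at -0.29.

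Further spindle genes were higher in 20 of 37 cases, with Haus8, an augmin subunit, at 0.68 and the kinesin gene Kif22 at 0.66, and lower in 1, the ciliary kinesin gene Kif3a at -0.48. Further cytokinesis genes had 7 of 17 higher and 4 lower, where Pimreg stood at 1.04 and Troap at 0.69, while the kinase gene Rock2 was at -0.58 and Gas2l3 at -0.59. The transcription factors that act on this programme had 10 of 14 higher and 1 lower: Mybl2 at 0.91 (adjusted p = 1.0e-04), the DREAM pocket protein gene Rbl1 at 0.62 (adjusted p = 2.0e-04), and Nfyb, a subunit of the CCAAT-binding factor, at -0.31 (adjusted p = 0.040). In IRAK4 KO + rescue against IRAK4 KO cells 2 of the 159 genes were higher (1.26%, against 8.35% of all genes), Kif3a (0.52) and Rock2 (0.43), and 7 lower (4.40%, against 5.88% of all genes), among them Fbxo5 (-0.45), Anapc16 (-0.42), Spc24 (-0.44), Pmf1 (-0.42), Cdca5 (-0.41) and Ncapg2 (-0.37), with a median of -0.11. Neither share exceeded that of all genes, and the 7 lower genes became 0 with a replicate block, 1 with DESeq2, 2 with only these groups in the fit or without either Wild-type library, 0 without either IRAK4 KO library or the second rescue library, and 25 without the first rescue library. The 2 higher genes became 0 without either IRAK4 KO library, 1 without the second rescue library and 6 without the first. In IRAK4 KO + rescue against Wild-type cells 47 were higher and 1 lower, Stag2 (-0.28), with a median of 0.24, where 10.2% of all genes were higher and 12% lower. The 47 became 8 without the first Wild-type library, 23 without the second, and 31 with DESeq2, and the 1 lower gene became 4 without the second rescue library and 0 without the first or either Wild-type library. In both rescue comparisons the counts over all genes moved in the same direction in these fits. Genes higher in the rescue than in Wild-type cells included Pimreg (0.78), Mad1l1 (0.76), Dsn1 (0.66), E2f7 (0.63), Fbxo5 (0.58) and Kif15 (0.55). Foxm1 (0.47), the gene for a direct activator of late cell cycle transcription, was higher too.

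Genes of DNA replication, the step before mitosis, were measured for comparison. Of 38, 35 were higher and 0 lower in IRAK4 KO than in Wild-type cells, where 23.2% of all genes were higher and 23.5% lower. The median log2 fold change was 0.74, where the 32 mitotic genes had 0.34. With a library left out, 31 to 36 of the 38 were higher. The helicase subunit gene Mcm5 stood at 1.40 (adjusted p = 7.9e-06) and Mcm2 at 1.06 (adjusted p = 1.4e-05). In IRAK4 KO + rescue against IRAK4 KO cells 9 of 38 were lower (23.7%, against 5.88% of all genes) and 0 higher, with a median of -0.25, among them Rpa2 at -0.58 and Rpa1 at -0.47, both subunits of the single-strand binding protein. The 9 became 0 without either IRAK4 KO library, 3 without the second rescue library, 5 without either Wild-type library or with only these groups in the fit, 6 with DESeq2 or a replicate block, 16 without a filter, and 20 without the first rescue library. Against Wild-type cells the rescue had 30 of 38 higher and 0 lower, with a median of 0.52, including Mcm5 (0.85) and the polymerase gene Pole (0.64), but 7 higher when the first Wild-type library was left out and 21 higher when the second was. Over all genes, 10.2% were higher and 12% lower in IRAK4 KO + rescue than in Wild-type cells. In both rescue comparisons the counts over all genes moved in the same direction in the fits just given. The difference between the mitotic and the replication genes was not tested.

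**Figure D4:**
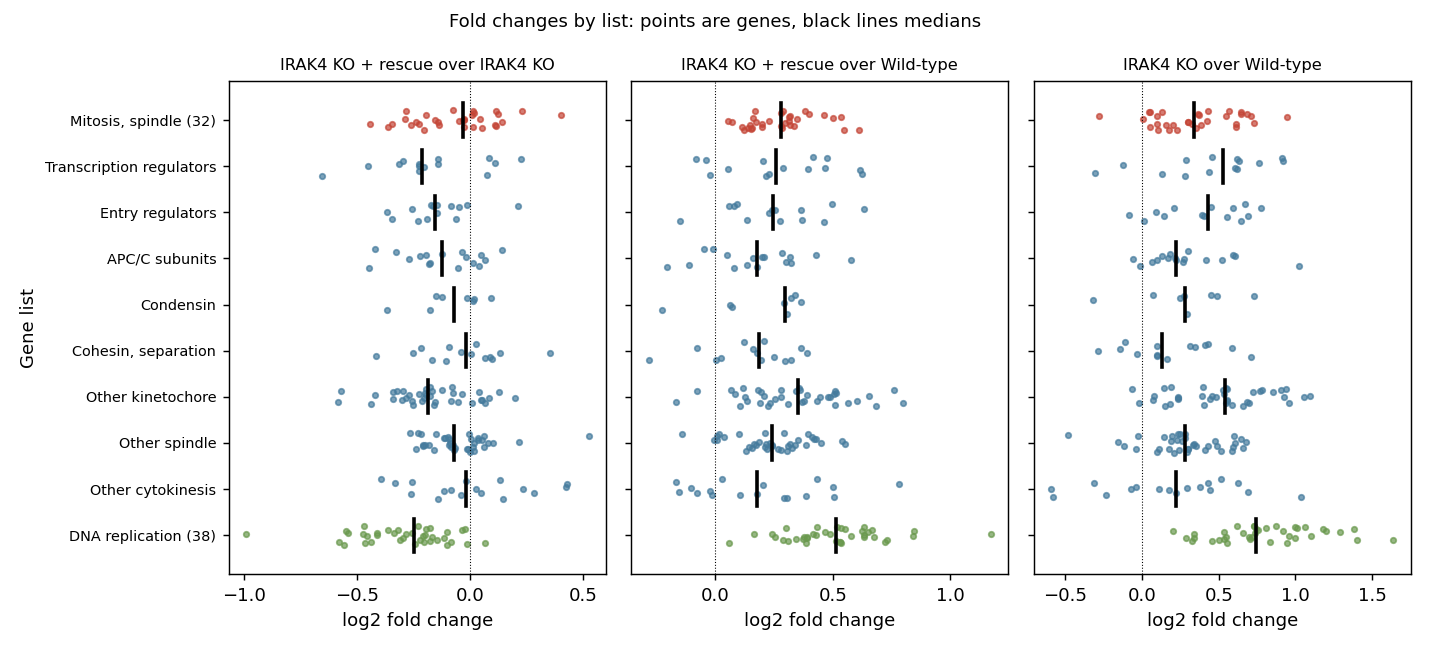
Log2 fold changes (horizontal axes) of the 32 mitosis and spindle genes, 8 lists of further mitotic genes and 38 DNA replication genes in the comparisons named above each panel; points are genes and black lines are medians. For the 32 genes the medians are -0.03 in the rescue over the knockout, 0.28 in the rescue over Wild-type cells and 0.34 in the knockout over Wild-type cells.

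The promoter windows tell which of the letters shown above these genes share. A CHR lay between 50 bases before and 50 bases after the start in 20 of 27 genes (74.1%), where 6.12% of the 27025 genes in the RefSeq table have one, and anywhere in the window in 21 (77.8%), against 21.7% of all genes. A CCAAT box was present in 20 (74.1%), against 41.1% of all genes, at least a pair of them in 14 (51.9%), against 13.3%, and both a CHR and a CCAAT box in 18 (66.7%), against 8.61%. E2F-type letters (TTTCCCGC, TTTGGCGC or TTCCCGCC, which can overlap each other) were in 0 of 27 windows, against 3.69% of all genes. Among the replication genes a CHR near the start was found in 2 of 30 (6.67%) and E2F-type letters in 13 of 30 (43.3%). Among further mitotic genes with a promoter, 43 of 132 (32.6%) had a CHR near the start. These matches are letters in a window and do not show binding.

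Genes with and without the CHR letters TTTGAA or TTCGAA near the start were both among those higher in IRAK4 KO cells. Of the 20 genes with these letters, 10 were called higher, with a median log2 fold change of 0.26 and a range of -0.28 (Bub1) to 0.94 (Cdc20). The 7 without were Ccnb1, Birc5, Mad2l1, Cenpe, Nuf2, Kif2c and Nusap1, of which 5 were called higher, with a median of 0.64 and a range of 0.06 to 0.73. Over all genes, 23.2% were called higher in IRAK4 KO cells. In IRAK4 KO + rescue against IRAK4 KO cells 1 of the 20 genes with these letters was lower, Cdc20. So were 3 of the 7 without, Ccnb1, Birc5 and Mad2l1, where 5.88% of all genes were lower. Of these genes only Cdc20 was called by DESeq2 or with a replicate block. No test was made of the difference between these small sets. A missing match says only that TTTGAA and TTCGAA were not found near the start. Kif2c, counted among the 7 without, holds these letters farther out in its window, at position -103 on the other strand (reading TTCAAA). Other spellings of the CHR were not searched, so genes without a match may still hold the element.

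**Figure D5:**
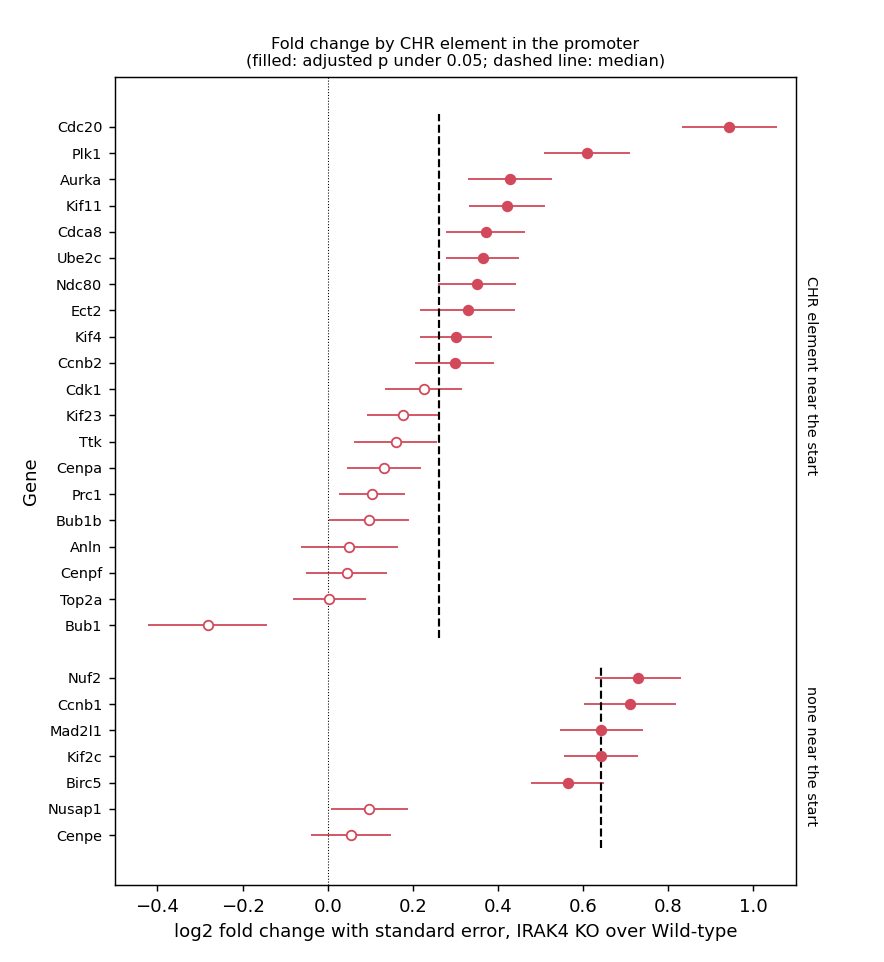
Log2 fold change of IRAK4 KO over Wild-type cells (horizontal axis, bars are the standard error) for the 27 genes with a RefSeq promoter. They are split by whether the CHR letters searched (TTTGAA or TTCGAA) lie near the start. Filled points have an adjusted p under 0.05 and dashed lines are medians. The 20 genes with these letters spread from -0.28 to 0.94 around 0.26, and 5 of the 7 genes without them are filled, around a median of 0.64.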

How the data were processed

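RNA-seq libraries of KP2 cells (2 per group, 6 in all) were grouped by their titles. Per the file headers, the authors deposited 3 values for each of 41388 genes in a library: the count of reads, its CPM and its RPKM. The deposited CPM is the count scaled to the file's total, and the deposited RPKM is that CPM per kilobase of the listed length. Per the submitters' processing notes, the tools were bcl2fastq, STAR 2.0.4b, Subread and featureCounts 1.45 with GRCm38; how strand was handled, and which annotation was used, is not given here by the sources. Symbols came from GENCODE M21 (40254 identifiers).

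The deposited counts were filtered with filterByExpr (minimum count 10, minimum total 15), scaled by TMM and fitted in edgeR 4.0.16 (R 4.3.3, limma 3.58.1) with a mean for each group, leaving 3 residual degrees of freedom. The quasi-likelihood test gave p-values adjusted by Benjamini-Hochberg over 12339 genes, called under 0.05. The standard error (SE) is the log2 fold change over the square root of F. Normalised CPM is over the TMM-scaled library size. RPKM served to order levels between genes. Code was tested on simulated data. Promoters are RefSeq, GRCm38.p6.

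The 32 genes and the other lists were chosen with earlier results of these data known. All 32 genes are named. They are given per library for up to 3 per role with the smallest adjusted p in the knockout comparison, for those called in the rescue comparisons, and for a few shown beside them. Of each further role and comparison, up to 2 called genes per direction with the smallest adjusted p are named. Libraries of a group differed beyond counting noise, so none was a repeat count of the same library. Whether they came from separate cultures cannot be told from this. Alternatives were DESeq2 size factors, the DESeq2 1.42.0 test, no filter, a filter on a mean of 1 CPM, only the groups compared, a replicate block, and leaving out each library.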

Additional observations from a re-analysis of the deposited data

How the results depend on the processing

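The counts of the 32 genes called moved with single libraries, and the counts over all genes tested moved as well. For IRAK4 KO against Wild-type the 19 higher genes were 16 to 21 under the other settings and 11 to 21 with a library left out, and the 0 lower genes became 1 (Bub1) with no filter, in the fit of the groups compared, and in the crossed block below, with 0 to 1 when a library was left out. For IRAK4 KO + rescue against IRAK4 KO the 4 lower genes became 1 with DESeq2, 1 with only the groups compared and 1 with a replicate block, and 0 to 7 with a library left out. The 0 higher genes became 1 (Bub1) without a filter and 0 to 2 with a library left out. For IRAK4 KO + rescue against Wild-type the 14 higher genes were 10 to 15, and 3 to 15 with a library left out. The medians of 0.34, -0.03 and 0.28 in these comparisons ranged over 0.25 to 0.40, -0.09 to 0.01 and 0.22 to 0.33 with a library left out. No log2 fold change called for any of the 32 genes changed sign in the 12 alternatives planned. The cause of these changes was not tested. Where a group is left with 1 library, that library is assumed to vary like the others.

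Deviations of same-numbered libraries correlated at 0.03 (IRAK4 KO with Wild-type), -0.20 (rescue with IRAK4 KO) and -0.17 (rescue with Wild-type). With 2 libraries per group, each correlation sets the library difference of a group beside that of another. It therefore cannot decide whether replicate numbers in the labels pair the samples. The replicate block gave 19, 1 and 10 called genes where the fit without it gave 19, 4 and 14. A block with the numbers of the rescue libraries crossed, chosen after seeing the data, called 21 higher and 1 lower, 1 higher and 7 lower, and 17 higher and 0 lower in the same order of comparisons. The 32 genes had 249 to 8690 counts in a library, and with 2 libraries per group both counting error and the spread between libraries limit these calls.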
